A study of Mus musculus with 8 samples.

Results

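ADAM genes encode membrane-anchored proteins with a disintegrin and a metalloproteinase domain. They were taken as every gene name in the scanner files that is Adam followed by a digit, which leaves out the secreted Adamts and Adamtsl families. The rule found 33 genes, read by 51 probes, among 34964 gene names and 55681 probes. They were divided by known role into 9 sheddases (Adam8, Adam9, Adam10, Adam12, Adam15, Adam17, Adam19, Adam28 and Adam33), 3 genes of the nervous system (Adam11, Adam22 and Adam23) and 21 genes known mainly from testis or epididymis.

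A sheddase cuts the outer part of a membrane protein free from the cell, which releases growth factors, cytokines and receptors and, for Notch, opens the way for gamma-secretase. The nervous system members lack a working protease site and act as receptors or adhesion proteins, while many testis members sit on the sperm surface and take part in fertilisation. Mature medullary thymic epithelial cells (mTEC) transcribe, at low level, many genes that belong to other organs and so expose developing T cells to them; Aire is the best known regulator of this programme, and Cdx1 is a homeobox factor of intestinal epithelium.

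The study used mice of a mixed C57BL/6 and 129 background and Agilent single-colour arrays. There were 3 arrays of Cdx1-/- mTEC, 3 of Cdx1+/+ mTEC, 1 labelled Cdx1-/- small intestinal epithelial cells (SIEC) and 1 labelled Cdx1+/+ SIEC, with no age given for the animals. The mTEC were sorted as living (Fluorogold-) Epcam+ UEA1+ CD45- cells with high CD80 and MHC class II, each replicate from 4 to 6 pooled thymi, and the SIEC as living Epcam+ CD45- cells, each replicate from 3 pooled mice. The first question was whether loss of Cdx1 changes ADAM transcripts in mTEC, and the second how mTEC and SIEC differ in them.

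The level of a probe is given as the log2 of its background-subtracted signal minus the 75th percentile of its array. Each unit is therefore a doubling, and levels of different probes are not comparable. Cdx1 was lower in Cdx1-/- mTEC (4.80, 4.99 and 5.00) than in Cdx1+/+ mTEC (5.88, 5.91 and 5.97), a log2 difference of −0.99 (limma's adjusted p = 0.00376), but it stayed above background; whether its probe lies in the deleted part was not determined. The array labelled Cdx1-/- SIEC read 6.48 and that labelled Cdx1+/+ SIEC 4.87, against the labels, so SIEC genotypes are quoted below only as labelled. Between 58.6% and 63.5% of spots were well above background on mTEC arrays, against 44.6% and 46.3% on SIEC arrays, and no spot was saturated. The summed level of the mTEC marker list was 405 to 462 in Cdx1-/- mTEC, 422 to 466 in Cdx1+/+ mTEC and 89.5 to 91.7 in SIEC, in units of the array's 75th percentile. Aire was well above background on every mTEC array and on no SIEC array. Of the 11 mTEC markers on the array, however, 6 were detected on both SIEC arrays.

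Some sequences are shown first. Those of the Adam11 and Adam33 probes belong to later results that disagree by probe, while no later result uses the promoter. The first sequence is from Adam19, the ADAM gene with the largest genotype difference. It is the 250 bases before the gene start in the first of 3 Adam19 promoter entries from RefSeq. The bases lie on the + strand of GRCm38.p6 at chr11:46054252-46054501. Capitals mark the letters TTTAT, the core that Cdx factors are known to bind; it was searched as TTTAT or its reverse complement ATAAA on both strands, and it begins 153 bases before the gene start.
Adam19 promoter: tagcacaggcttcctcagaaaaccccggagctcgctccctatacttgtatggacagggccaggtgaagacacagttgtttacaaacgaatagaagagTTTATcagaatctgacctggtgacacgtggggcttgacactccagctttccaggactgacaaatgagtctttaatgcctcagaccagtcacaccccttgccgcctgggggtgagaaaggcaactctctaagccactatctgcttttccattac
The same letters occur in 12241 of 32851 mouse promoters of that length (37.3%), in 9 of 19 promoter entries of ADAM genes (47.4%) and in 2 of the 3 entries of Adam19, so they are common. A match describes the sequence and is no evidence that a factor binds there.

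The second set is from the 2 Adam11 probes, whose tissue differences disagree, and the third from the 3 Adam33 probes, which disagree between genotypes. Only the first 30 of 60 bases are printed, with all letters in lower case since no stretch within them is singled out. The Adam11 probes lie at chr11:102641316-102641375 and chr11:102638157-102638216 on the + strand of mm9.
Adam11 probe A_52_P205255: ttggtgaagaacacaagacttcctgtggcc
Adam11 probe A_55_P1962876: tgcagtattcacaacccactgcccacgtcc
The Adam33 probes lie on the − strand of mm9. The first spans 1327 bases of genome at chr2:130877240-130878566, which is longer than the probe, so it crosses a splice junction. The others lie at chr2:130876845-130876904 and chr2:130883874-130883933.
Adam33 probe A_52_P333289: ccctatggaatagagacatacccctgggca
Adam33 probe A_55_P2083694: ttgtcccctcctcagatttacaggcttgca
Adam33 probe A_55_P2083700: cttcccagtggggccgatcgaagagggcat

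Detection separated the roles. All 9 sheddase genes and all 3 nervous system genes had a probe well above background on every mTEC array. Of the 21 testis and epididymis genes, 4 (Adam5, Adam7, Adam18 and Adam32) were detected on all 6 mTEC arrays, 7 on some and 10 on none. Counted over the 51 probes, the Cdx1-/- mTEC arrays showed 27, 26 and 28 well above background, against 30, 26 and 29 in Cdx1+/+ mTEC, so the genotypes overlapped. The SIEC arrays had 14 (labelled Cdx1-/-) and 15 (labelled Cdx1+/+), fewer than any mTEC array. Among all probes of the array the share was 56.9% to 62.0% in mTEC and 43.4% to 45.1% in SIEC.

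**Figure D1:**
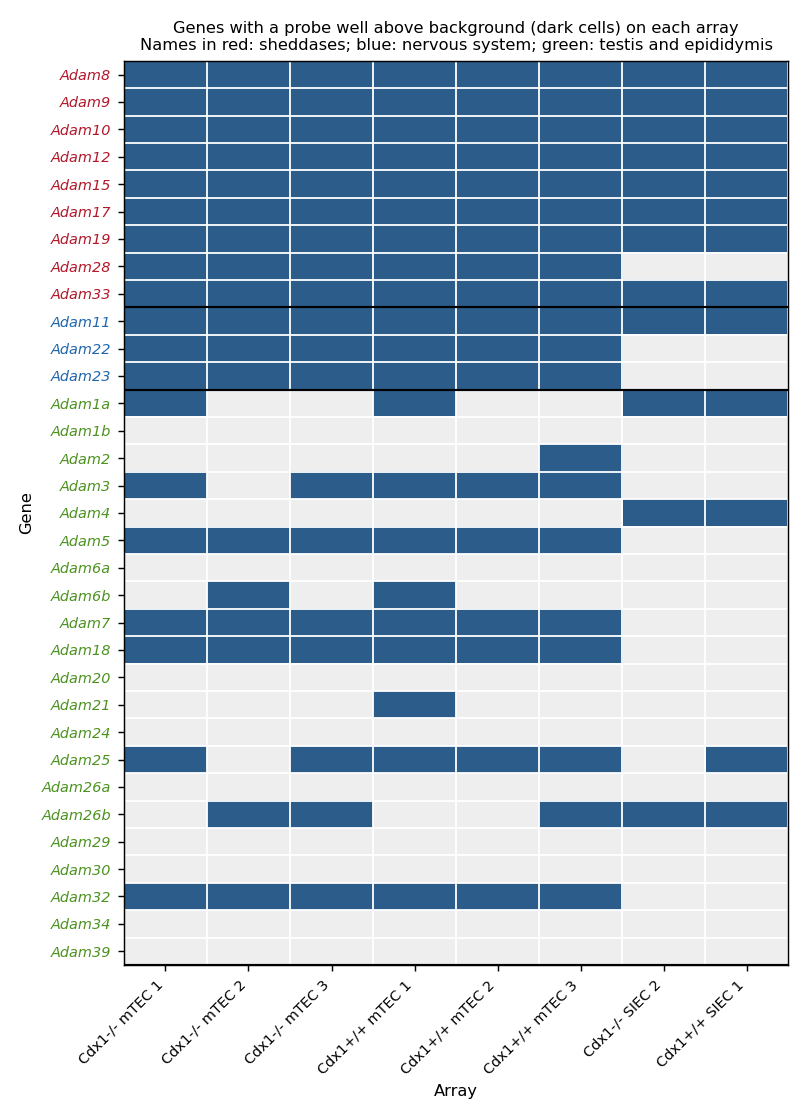
Detection of the 33 ADAM genes (rows) on the 8 arrays (columns), where a dark cell means that at least 1 probe of the gene was well above background. The 9 sheddases (red names) and 3 nervous system genes (blue names) are dark on all 6 mTEC arrays, while 9 of the 21 testis and epididymis genes (green names) are dark on no array.

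By role, 13 to 14 of 16 sheddase probes were well above background on mTEC arrays and 9 on each SIEC array. For nervous system genes the counts were 6 of 9 probes on mTEC arrays and 2 on SIEC arrays. For testis and epididymis genes they were 7 to 8 of 26 in Cdx1-/- mTEC, 7 to 11 in Cdx1+/+ mTEC and 3 to 4 in SIEC. Detection was thus common among sheddases in both tissues, and partial among testis members in both. The testis genes detected on both SIEC arrays were Adam1a, Adam4 and Adam26b; Adam4 was on no mTEC array.

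In Cdx1-/- mTEC the levels of Adam19 and Adam12 fell and those of Adam15 and Adam28 rose. All of these are among the 9 sheddases tested. None of the 3 nervous system and 7 testis genes tested passed the test, and 14 testis genes were not tested. The test was limma's moderated test on 1 probe per gene, adjusted by Benjamini and Hochberg's method across the 24338 genes of the fit, with calls at 0.05. Of the 33 ADAM genes, 19 passed the filter on dim probes and were tested, 2 were higher, 2 lower and 15 did not pass. Over all tested genes, 6.2% were called higher and 6.61% lower. The counts among the 19 ADAM genes were not tested against these shares or between roles. Since thymic samples hold many cells, fewer cells of a type and less RNA per cell cannot be told apart in any of these values.

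Adam19, also called meltrin beta, is a protease known from heart development and the processing of neuregulin. Its level was 0.75, 0.73 and 0.49 in Cdx1-/- mTEC, against 2.77, 2.62 and 2.72 in Cdx1+/+ mTEC. No Cdx1-/- array came near a Cdx1+/+ array. The log2 difference was −2.05 (SE 0.10), 4.13-fold lower in Cdx1-/- mTEC (n = 3 each), with limma's adjusted p = 0.00148. Among the genes lower in Cdx1-/- mTEC it was the 18th by size of the difference. With each of the 6 arrays left out in turn the difference stayed between −2.09 and −1.96 and passed every time. The probe lies at chr11:45960740-45960799 on the + strand of mm9, and Adam19 had no other probe above background.

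Adam12, or meltrin alpha, is a protease of mesenchyme and regenerating muscle. It read −1.90, −1.59 and −1.77 in Cdx1-/- mTEC, against −1.29, −1.18 and −1.19 in Cdx1+/+ mTEC. The groups did not overlap, and the log2 difference was −0.53 (SE 0.10, limma's adjusted p = 0.0243, n = 3 each). A dimmer Adam12 probe differed by −0.26 and did not pass (limma's adjusted p = 0.247), and the last of its 3 probes was above background on no array. Leaving out any array except Cdx1-/- mTEC 2 ended the call, with adjusted p between 0.0529 and 0.0771.

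Adam28 is a protease of lymphocytes and epididymis. Its level was −2.29, −2.63 and −2.56 in Cdx1-/- mTEC, against −3.10, −2.998 and −3.44 in Cdx1+/+ mTEC. Every Cdx1-/- array was above every Cdx1+/+ array, and the log2 difference was 0.68 (SE 0.15, limma's adjusted p = 0.0332, n = 3 each). The dimmer Adam28 probe differed by 0.65 and did not pass (adjusted p = 0.144). Adam15, a protease of epithelia and endothelium, read 3.26, 3.15 and 3.15 in Cdx1-/- mTEC, against 2.91, 2.76 and 2.76 in Cdx1+/+ mTEC. Its groups did not overlap either, and the log2 difference was 0.38 (SE 0.09, limma's adjusted p = 0.0383, n = 3 each). Neither gene passed with any 1 of the 6 arrays left out; adjusted p was 0.0521 to 0.0768 for Adam28 and 0.0574 to 0.116 for Adam15.

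Cdx1-/- mTEC 1 was on another slide than the other 5 mTEC arrays, so the genotypes were also compared within slide 1. There Adam19 differed by −2.09 (limma's adjusted p = 0.00541) and passed. Adam12 differed by −0.46 (adjusted p = 0.0554), Adam15 by 0.34 (adjusted p = 0.0899) and Adam28 by 0.58 (adjusted p = 0.0735), and none of these passed.

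**Figure D2:**
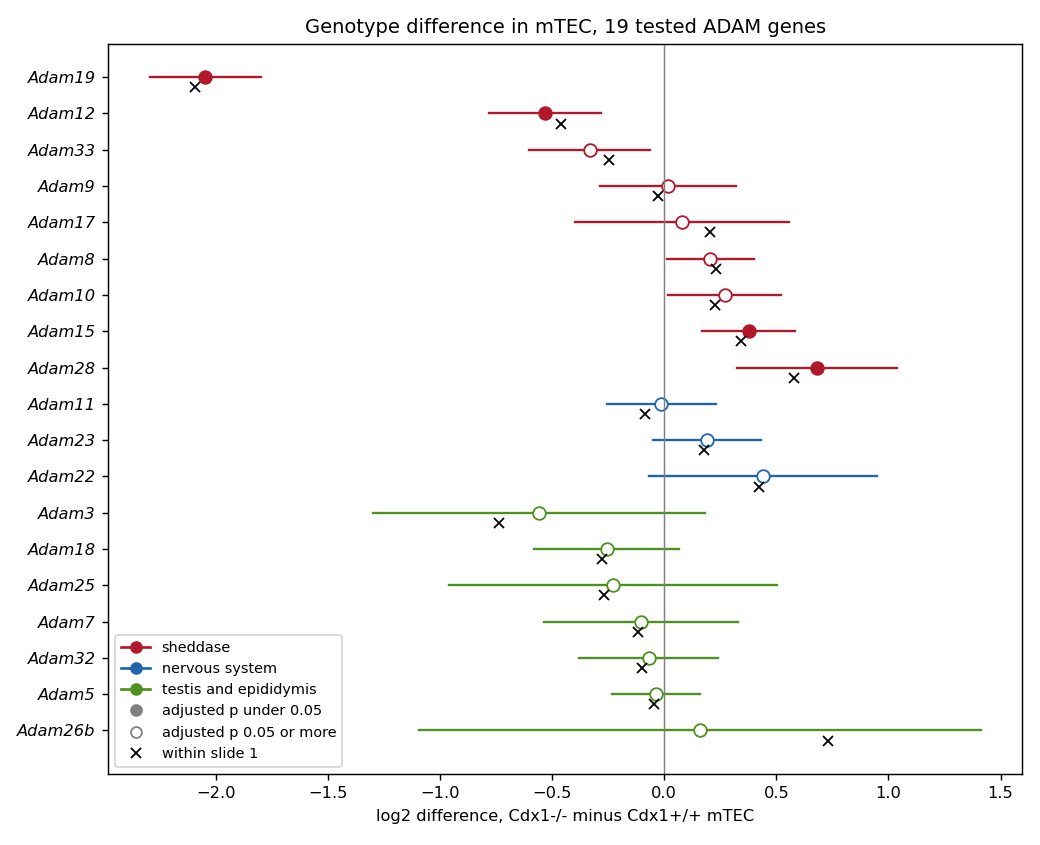
Log2 difference between Cdx1-/- and Cdx1+/+ mTEC (x axis) for the 19 tested ADAM genes (rows), grouped by role; bars are 95% confidence intervals, filled points have an adjusted p under 0.05 and crosses give the difference within slide 1. Adam19 lies at −2.05, apart from every other member, and its cross at −2.09.

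The remaining sheddases did not pass. Adam10, the enzyme that cuts Notch and the amyloid precursor, read 2.80, 2.76 and 2.58 in Cdx1-/- mTEC, against 2.57, 2.33 and 2.42 in Cdx1+/+ mTEC. Those groups lay side by side with a log2 difference of 0.27 (95% interval 0.02 to 0.52, limma's adjusted p = 0.138). Adam8, a protease of leukocytes, read 5.81, 5.86 and 5.91 in Cdx1-/- mTEC, against 5.71, 5.64 and 5.61 in Cdx1+/+ mTEC. Its log2 difference of 0.21 (limma's adjusted p = 0.139) was small although the groups did not overlap. Adam17, the enzyme that releases TNF, differed by 0.08 (95% interval −0.40 to 0.56), and its groups overlapped. Adam9, widely expressed, differed by 0.02 (95% interval −0.28 to 0.32).

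Adam33, a gene known from human asthma susceptibility studies, gave opposite signs by probe. Its brightest probe read −0.49, −0.29 and −0.19 in Cdx1-/- mTEC, against −0.13, 0.06 and 0.09 in Cdx1+/+ mTEC. That difference of −0.33 did not pass (limma's adjusted p = 0.103). The probe across the splice junction differed by 0.58, where Cdx1-/- mTEC 1 read −0.46 and the other Cdx1-/- arrays −2.24 and −1.76. The third probe differed by 0.16, and none of the 3 passed.

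**Figure D3:**
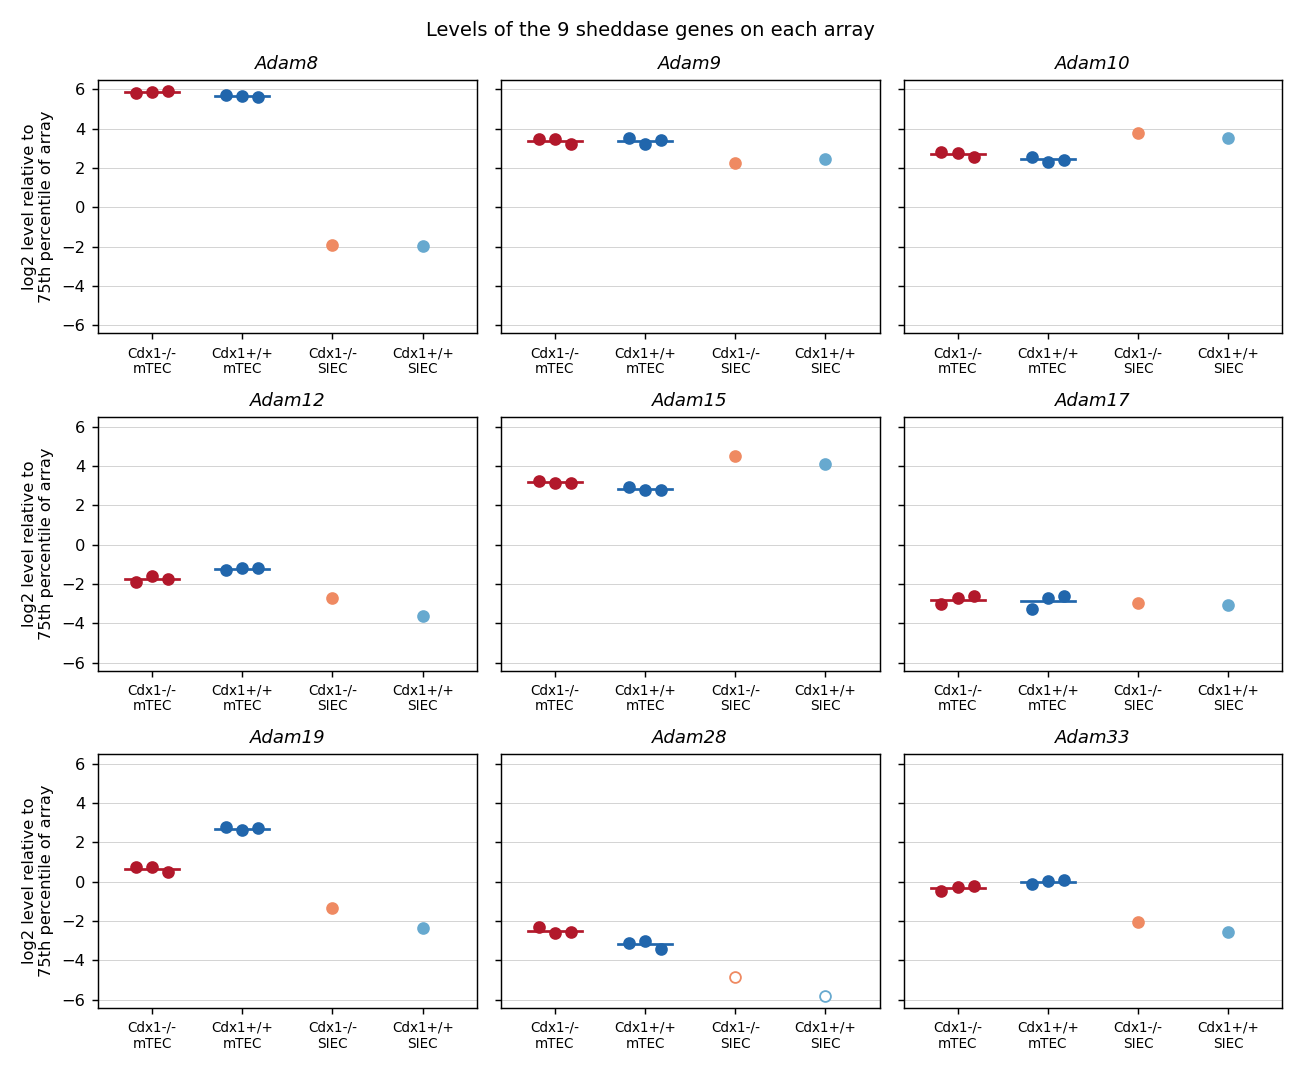
Log2 level relative to the array's 75th percentile (y axis) of the 9 sheddase genes, 1 point per array, in Cdx1-/- mTEC, Cdx1+/+ mTEC and the SIEC arrays as labelled; lines are means of 3 arrays and open points are not well above background. Adam19 is the panel in which the Cdx1-/- mTEC points (0.49 to 0.75) stand farthest below the Cdx1+/+ mTEC points (2.62 to 2.77).

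Among nervous system genes, Adam22 and Adam23 are receptors for LGI proteins at synapses. Adam22 read −3.002, −3.29 and −2.83 in Cdx1-/- mTEC, against −3.29, −3.92 and −3.23 in Cdx1+/+ mTEC, and the groups overlapped (log2 difference 0.44, limma's adjusted p = 0.213). Adam23 differed by 0.19 (adjusted p = 0.253), and 2 more of its 4 probes by 0.10 and 0.14, while the last was on no array. Adam11 differed by −0.01 (95% interval −0.26 to 0.23).

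The 7 tested testis and epididymis genes had log2 differences between −0.56 and 0.16, with a median of −0.10. Adam3, needed by mouse sperm to enter the oviduct, read −4.00, −5.12 and −3.93 in Cdx1-/- mTEC, against −3.71, −3.88 and −3.77 in Cdx1+/+ mTEC. The low Cdx1-/- value was not well above background, and the difference of −0.56 did not pass (limma's adjusted p = 0.270). Adam32 read 0.13, −0.15 and 0.23 in Cdx1-/- mTEC, against 0.03, 0.10 and 0.28 in Cdx1+/+ mTEC, so the groups overlapped (log2 difference −0.07, 95% interval −0.38 to 0.24). Its dimmer probe differed by −0.48 (adjusted p = 0.0513). Adam5 differed by −0.04 (95% interval −0.23 to 0.16), Adam7 by −0.10 (−0.54 to 0.33) and Adam18 by −0.26 (−0.58 to 0.07). Adam25 (−0.23) and Adam26b (0.16) were near background, with intervals of −0.96 to 0.50 and −1.09 to 1.41.

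The medians of the tested members were 0.08 for sheddases, 0.19 for nervous system genes and −0.10 for testis genes, beside 0.00036 over all genes. In limma's fit, 7 of 9 sheddases, 0 of 3 nervous system genes and 0 of 7 testis genes had an unadjusted p under 0.05, beside 31.1% of all genes. The sheddases and the testis members were not compared with each other by a test.

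Marker lists of other cell types were read beside these differences. The summed level of fibroblast markers was 56.7 to 67.4 in Cdx1-/- mTEC and 67.3 to 73.8 in Cdx1+/+ mTEC; 9 of the 10 were on every mTEC array, 2 fell (Pdgfrb by 0.79 and Thy1 by 0.59 on the log2 scale), and Pdgfra was on no array. Dendritic cell and macrophage markers summed to 69.8 to 101 in Cdx1-/- mTEC and 92.6 to 110 in Cdx1+/+ mTEC. Of the 11 tested of that list Mrc1 fell by 1.43 and Lyz2 rose by 0.93 on the log2 scale, and Xcr1 was on no array. B cell markers summed to 12.7 to 14.3 in Cdx1-/- mTEC and 9.83 to 11.02 in Cdx1+/+ mTEC, but their median log2 difference over the 6 tested was −0.32. Among them Blk (0.65) and Cd79b (0.56) rose and Ebf1 fell by 0.63 on the log2 scale. Their part in the Adam12, Adam19, Adam15 and Adam28 differences was not tested.

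Intestinal epithelium markers, a program in which Cdx1 acts, summed to 61.8 to 71.2 in Cdx1-/- mTEC and 86.0 to 95.9 in Cdx1+/+ mTEC. Of the 13, 10 fell, with a median log2 difference of −0.83. Male germ cell markers, which would mark the cells that normally carry the testis members, summed to 8.81 to 10.72 in Cdx1-/- mTEC and 8.35 to 9.66 in Cdx1+/+ mTEC. Of the 8 tested, Prm2 (0.59) and Sycp3 (0.38) rose and Ddx4 fell by 0.73 on the log2 scale. Odf1, Crisp2 and Pgk2 were on no mTEC array.

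Proteins that mature, move or restrain ADAM proteases mostly did not pass between the genotypes, and the shares called in this and the lists that follow stand beside 6.2% higher and 6.61% lower over all genes. Of 18 tested genes of that list, the inhibitor Timp2 rose (log2 difference 0.47, limma's adjusted p = 0.0466) and Rhbdf2, an iRhom that brings Adam17 to the cell surface, fell (−0.53, adjusted p = 0.0404). Of 18 growth factor and cytokine substrates, Areg, an epidermal growth factor receptor ligand, fell (−1.18, adjusted p = 0.00504) and Tnf fell (−0.51, adjusted p = 0.0493). Of 18 Notch and adhesion substrates, Notch1 fell (−1.43, adjusted p = 0.00872), while the adhesion protein Cdh2 (0.89, adjusted p = 0.0113) and the Notch ligand Jag1 (0.57, adjusted p = 0.0327) rose.

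Of 6 tested gamma-secretase genes Aph1b rose (0.41, limma's adjusted p = 0.0225). Of 7 ligands and partners of the nervous system members, the potassium channel genes Kcna1 (−0.75, adjusted p = 0.0179) and Kcna2 (−0.98, adjusted p = 0.0188) fell. Of 8 sperm partners Tpst2, a tyrosine sulfating enzyme, rose (0.37, adjusted p = 0.0327). Of 20 related families, mainly Adamts, the von Willebrand factor protease Adamts13 fell (−0.40, adjusted p = 0.0337). Calls in these lists were not followed with arrays left out or within slide 1. Adam12, Adam15 and Adam28 lost theirs in most of those fits. Several, such as Tnf, Timp2 and Rhbdf2, lie near the threshold.

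Between mTEC and SIEC, 14 of the 21 tested ADAM genes were higher in mTEC, 5 were lower and 2 did not pass. The largest difference was in Adam8. That of Adam23 came next, but its SIEC values were not well above background, so its size is only a bound. Of those called higher, Adam3, Adam5, Adam7, Adam18, Adam22, Adam23, Adam28 and Adam32 entered the fit through mTEC alone. Of those called lower, Adam1a and Adam4 entered through SIEC alone. The direction of these genes follows from the filter, so the counts carry little weight. Over all 24681 genes in the tissue fit, 35.3% were called higher and 48.3% lower in mTEC, so a call in this comparison is common. The median gene was at a log2 difference of −0.37, and differences relative to it are given where they matter. Genotype entered the fit as an additive term, and SIEC had 1 array per labelled genotype. "At least" folds divide the mean of the bright group by that of the dim group, with each dim array set to its lowest signal among probes well above background or to the probe's own signal, whichever was higher.

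**Figure D4:**
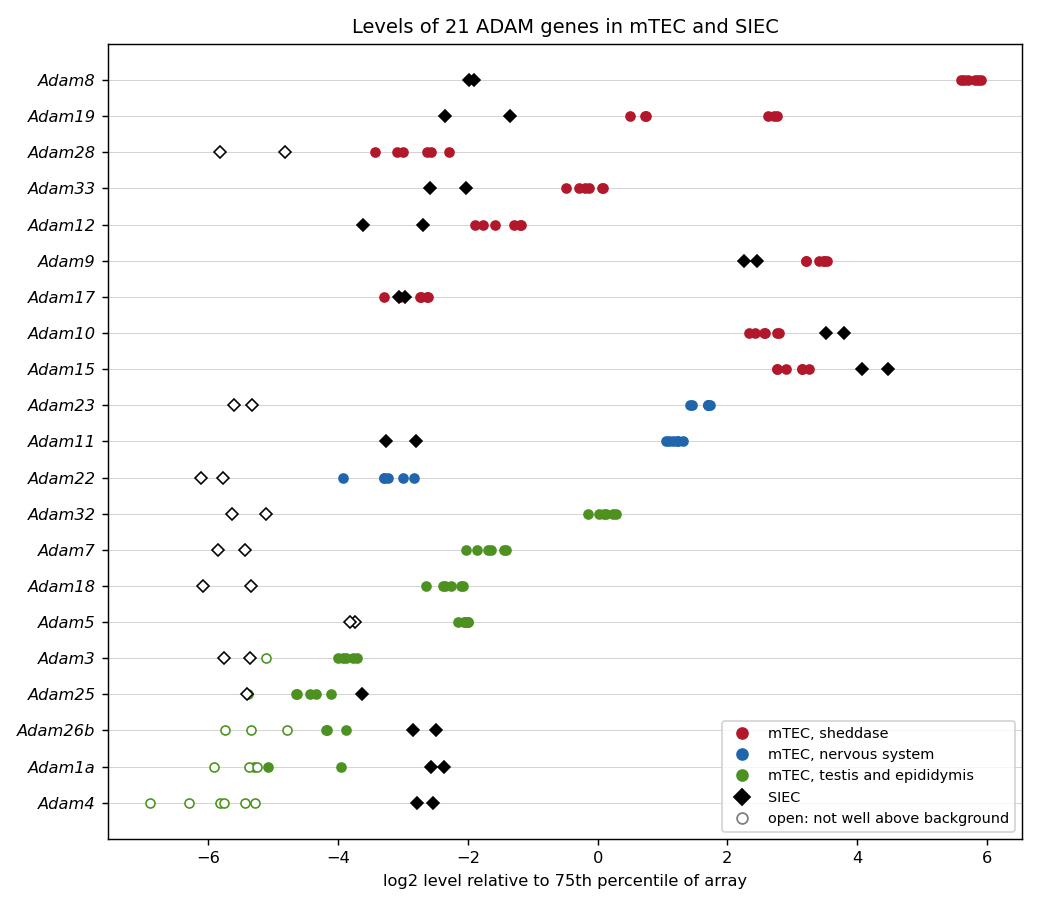
Log2 level relative to the array's 75th percentile (x axis) of the 21 ADAM genes tested between tissues (rows), with circles for the 6 mTEC arrays in the colour of their role and black diamonds for the 2 SIEC arrays; open symbols are not well above background. Adam8, Adam23, Adam11 and Adam32 show wide gaps with mTEC on the right, and Adam10, Adam15, Adam26b, Adam1a and Adam4 have SIEC on the right.

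Among sheddases, Adam8 read 5.61 to 5.91 on the 6 mTEC arrays (median 5.76), against −1.91 and −1.98 on the SIEC arrays. The tissues were far apart, with a log2 difference of 7.70 (SE 0.10), 208-fold higher in mTEC (limma's adjusted p = 1.51e-09). Adam9 read 3.20 to 3.53 in mTEC, against 2.26 and 2.46 in SIEC (log2 difference 1.03, limma's adjusted p = 0.000184). Adam33 differed by 2.14 (adjusted p = 2.25e-05) by its brightest probe and by 0.61 (adjusted p = 0.197) by the probe across the junction. Adam28 was not well above background in SIEC and was at least 1.93-fold higher in mTEC (log2 difference 2.48, adjusted p = 2.6e-06), but differed by 0.05 and did not pass with normexp background correction.

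Adam19 was higher in mTEC of both genotypes than on either SIEC array, which read −1.35 (labelled Cdx1-/-) and −2.35 (labelled Cdx1+/+). Its log2 difference was 3.53 (SE 0.57, limma's adjusted p = 0.000536), but it was 2.01 without Cdx1+/+ SIEC 1 and 5.05 without Cdx1-/- SIEC 2. Adam12 differed by 1.67 (adjusted p = 0.000802), by 0.95 without Cdx1+/+ SIEC 1, by 2.40 without Cdx1-/- SIEC 2 and by 0.55 with normexp.

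Adam10 and Adam15 were lower in mTEC. Adam10 read 2.33 to 2.80 in mTEC, against 3.80 and 3.52 in SIEC (log2 difference −1.09, limma's adjusted p = 4.4e-05). Adam15 read 2.76 to 3.26 in mTEC, against 4.48 and 4.07 in SIEC (−1.28, adjusted p = 7.39e-06). Relative to the median gene they were at −0.72 and −0.91, and under quantile normalization at −0.29 and −0.41. Adam17 overlapped between tissues and did not pass (0.17, adjusted p = 0.434); relative to the median gene it was at 0.54, and at −0.31 under quantile normalization, and with normexp it was lower in mTEC (−0.44, adjusted p = 0.0389).

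All 3 nervous system genes were called higher in mTEC, although Adam22 differed by 0.03 and did not pass with normexp. Adam22 and Adam23 entered the fit through mTEC alone, so their direction follows from the filter and the count carries no weight. Adam23 read 1.42 to 1.74 in mTEC, while its SIEC values of −5.61 and −5.33 were not well above background. It was at least 42.4-fold higher in mTEC (log2 difference 7.09, limma's adjusted p = 5.63e-09), and 2 more of its 4 probes differed by 2.77 and 3.11. Adam22 was at least 1.44-fold higher (log2 difference 2.68, adjusted p = 7.1e-06). Adam11 disagreed by probe: the downstream probe read 1.05 to 1.32 in mTEC, against −2.80 and −3.26 in SIEC (log2 difference 4.21, adjusted p = 6.36e-08). The upstream one read −0.57 to −0.01 in mTEC, against 0.08 and −0.14 in SIEC (−0.19, adjusted p = 0.349).

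Of the 21 testis and epididymis members 12 were not tested, 5 were called higher in mTEC and 3 lower. The 5 entered the fit through mTEC alone, and Adam4 and Adam1a through SIEC alone, so their direction follows from the filter and the counts carry no weight. Adam32 read −0.15 to 0.28 in mTEC, against −5.64 and −5.12 in SIEC, where it was not well above background. It was at least 14.8-fold higher in mTEC (log2 difference 5.48, limma's adjusted p = 2.97e-08), although its dimmer probe differed by 0.46 and did not pass. Adam7, made in mouse epididymis, read −2.04 to −1.41 in mTEC and was at least 4.31-fold higher (3.97, adjusted p = 6.37e-07). Adam18 was at least 2.80-fold higher (3.41, adjusted p = 3.06e-06) and Adam5 at least 3.13-fold higher (1.74, adjusted p = 1.12e-06). With normexp these dim genes stayed higher by smaller log2 differences, 2.45 for Adam32, 0.93 for Adam7, 0.48 for Adam18 and 0.37 for Adam5.

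Adam3 had a log2 difference of 1.49 (limma's adjusted p = 0.00407), on 5 of 6 mTEC arrays and no SIEC array. Its mean mTEC level lay under the lowest SIEC signal well above background, so no fold can be given. It did not pass without Cdx1+/+ SIEC 1 (1.01, adjusted p = 0.0725) or with normexp, where its sign turned (−0.29). Adam4 was the reverse, well above background on both SIEC arrays (−2.53 and −2.78) and on no mTEC array; SIEC exceeded mTEC at least 4.80-fold (−3.26, adjusted p = 9.42e-05). Adam1a, the fertilin alpha gene, was also lower in mTEC (−2.68, adjusted p = 0.000607), where it was above background on 2 of 6 arrays, but it differed by −1.33 with slide as a block and −1.49 within slide 2. Adam26b had a log2 difference of −2.02 (adjusted p = 0.00600), or −3.29 with slide as a block and −3.08 within slide 2, and did not pass without Cdx1+/+ SIEC 1 (adjusted p = 0.0655). Adam25 did not pass (−0.07, adjusted p = 0.870), but was lower in mTEC with normexp (−0.80, adjusted p = 0.00148).

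Within slide 2, which holds Cdx1-/- mTEC 1 and both SIEC arrays, Adam10 (−0.86, limma's adjusted p = 0.0876), Adam12 (1.26, adjusted p = 0.0739) and Adam15 (−1.02, adjusted p = 0.0637) no longer passed. With 1 mTEC array there, its spread is assumed to be that of the SIEC arrays, and these p-values say little about stability. The differences of Adam8 (7.75), Adam23 (7.21) and Adam11 (4.35) were close to those over all arrays. Male germ cell markers summed to 8.35 to 10.72 in mTEC and 0.428 to 0.542 in SIEC, and fibroblast markers to 56.7 to 73.8 in mTEC and 3.07 to 5.00 in SIEC. Dendritic cell and macrophage markers summed to 69.8 to 110 in mTEC and 124 to 210 in SIEC. Yet of the 11 tested of that list 6 were higher in mTEC and 3 lower, with a median log2 difference of 2.62. The sum and the median of that list thus point in opposite directions. Thymocyte markers summed to 13.5 to 20.4 in mTEC and 13.4 to 36.8 in SIEC. B cell markers summed to 9.83 to 14.3 in mTEC and 3.97 to 5.05 in SIEC. Endothelium markers summed to 8.12 to 10.9 in mTEC and 4.76 to 4.96 in SIEC. The part of these cells in the tissue differences was not tested.

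The genes around the ADAM proteases also differed between tissues. Of 18 maturation and control genes 9 were higher in mTEC and 5 lower, among them the inhibitors Timp3 (log2 difference 7.00), Timp1 (at least 117-fold) and Timp4 (at least 21.6-fold). An "at least" fold is again given for genes not well above background in SIEC. Such genes entered the fit through mTEC alone, so their direction follows from the filter. Of 18 growth factor substrates 10 were higher and 5 lower, with Nrg1 at least 169.8-fold higher and log2 differences of 4.84 for Epgn and −2.69 for Kitl. Of 18 Notch and adhesion substrates 11 were higher and 5 lower, with Notch3 at least 13.1-fold and Efna5 at least 27.0-fold higher and Dll1 at −2.76. Timp3, Epgn, Kitl and Dll1, well above background in both tissues, passed limma's test.

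Of 6 gamma-secretase genes 1 was higher in mTEC and 5 were lower, including Aph1a (−2.996). Of 7 partners of nervous system members 6 were higher, including the LGI ligands Lgi2 (at least 2.95-fold) and Lgi3 (at least 2.30-fold), and 1 was lower. Of 8 sperm partners 6 were higher, including Ly6k (at least 18.2-fold), Pdilt (at least 7.47-fold) and Tex101 (at least 4.15-fold), and 1 was lower. Of 20 related family members 14 were higher, among them Adamts14 (at least 59.0-fold) and Adamts2 (at least 40.0-fold), and 4 were lower. Over all genes 35.3% were called higher and 48.3% lower. List counts that include genes with an "at least" fold follow in part from the filter and carry little weight.

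Many testis members lie in runs on chromosome 8 (mm9), and detection is given by run without a test. Over all probes, 56.9% to 62.0% were well above background on mTEC arrays and 43.4% to 45.1% on SIEC arrays. In the first run, from position 25712756 to 26060310 (347.6 kb), Adam18, Adam3, Adam5, Adam32 and Adam9 were each well above background on at least 4 mTEC arrays. Adam9, a sheddase, was the one of them detected in SIEC. In the second, from 41767082 to 41912194 (145.1 kb), Adam25 was detected on 5 mTEC arrays and 1 SIEC array, and Adam24, Adam20 and Adam39 on none. In the third, from 44605282 to 44735854 (130.6 kb), Adam26b was detected on 3 mTEC arrays and both SIEC arrays, and Adam26a and Adam34 on none. Adam29, farther along, was on no array. Genes of a run share a neighbourhood, so they are not independent observations.

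**Figure D5:**
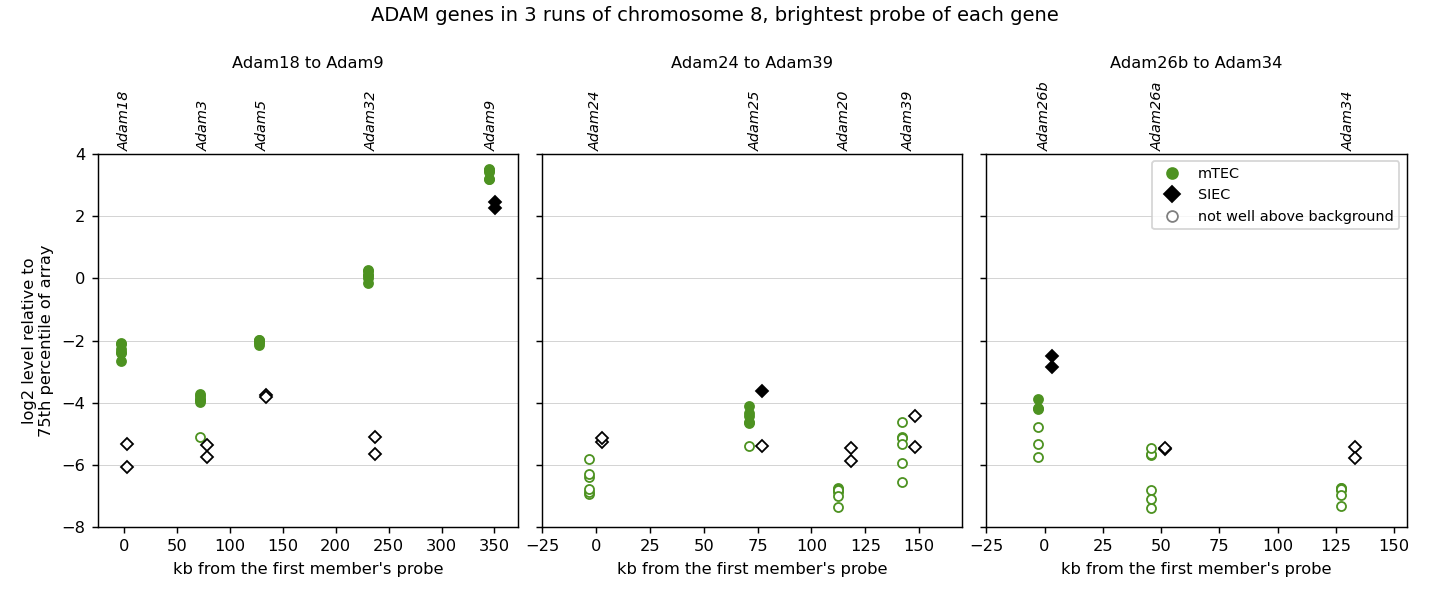
Log2 level relative to the array's 75th percentile (y axis) of the brightest probe of each ADAM gene in 3 runs of chromosome 8, by distance in kb from the first member's probe (x axis); circles are the 6 mTEC arrays, diamonds the 2 SIEC arrays and open symbols are not well above background. All 5 genes of the first run have filled mTEC circles, and Adam20, Adam24, Adam39, Adam26a and Adam34 have none.

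The genotype difference itself was compared between tissues by an interaction term, in which each SIEC array is assumed to vary like mTEC. With the labels as given, 3 of the 21 genes passed with a more negative difference in mTEC, beside 14.7% of all genes in either direction. The values were −3.05 for Adam19 (SE 0.21, limma's adjusted p = 0.00169), −1.45 for Adam12 (adjusted p = 0.00823) and −0.89 for Adam33 (adjusted p = 0.0477). Between the SIEC arrays alone, labelled Cdx1-/- minus labelled Cdx1+/+, Adam19 differed by 1.00, Adam12 by 0.92 and Adam33 by 0.55 on the log2 scale. Adam19 was the 1 ADAM gene of 12 detected on both SIEC arrays that reached 2-fold, beside 4.61% of all genes on that pair, and with 1 array each no test was made. Cdx1 goes against the SIEC labels, so the interaction was also fitted with those labels exchanged, an alternative chosen after the data were seen. Adam19 was then at −1.05 (limma's adjusted p = 0.0267), while Adam12 (0.39, adjusted p = 0.312) and Adam33 (0.22, adjusted p = 0.613) changed sign and did not pass. Adam15 (0.78, adjusted p = 0.0389) and Adam28 (1.68, adjusted p = 0.0195) passed as higher instead. Which members are called, and the direction for Adam12 and Adam33, therefore turn on the SIEC labels.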

How the data were processed

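Total RNA of sorted cells was labelled with Cy3 and hybridised to single-colour arrays. Per the file headers, the authors deposited spot intensity values from Agilent Feature Extraction 10.7.3.1, background-subtracted and detrended within each array but not normalized between arrays, with positions on mm9 and, per spot, 0 or 1 flags for signal well above background, saturation and outliers. The deposited normalized intensity table equalled the same signals times 1 constant per array and served as an alternative.

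Here, outlier and control spots were left out, spots of a probe were averaged, and log2 signal minus each array's 75th percentile was used. A gene was read by its brightest probe among those above background on 2 or more arrays of an mTEC genotype or, in the tissue fit, on both SIEC arrays. Genes were tested with limma 3.58.1 (R 4.3.3), Benjamini-Hochberg adjusted over all genes. Symbols came from accessions through RefSeq of GRCm38.p6 (27509 of 55681 probes); others kept the file's name. Arrays of Cdx1-/- and Cdx1+/+ mTEC with the same number deviated together (correlations 0.322, 0.147 and 0.148), so the number may pair them. This comes from the data. The main fits took the arrays as unpaired. The number as a block is an alternative, in which Adam19 had limma's adjusted p = 0.0164. The rest of the alternatives were normexp (offset 50), quantile normalization, slide as a block, within-slide fits, other filters, probe rules and leaving out arrays. The tests were checked on simulated data with independent errors and no slide, pairing or background effects, so that check does not cover these.

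The members, lists and tests were chosen with earlier results of these data known. Any member may be named; from other lists, up to 4 genes of smallest p. Array number limits precision, and p-values measure the spread between pooled samples.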

Additional observations from a re-analysis of the deposited data

Results flagged for a closer look

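The genotype difference in mTEC was set against that between the SIEC arrays, as labelled, by limma's interaction term. SIEC had 1 array per labelled genotype, assumed to vary like mTEC, on a slide that held 1 of the 6 mTEC arrays, and Cdx1 read opposite to the SIEC labels. The calls therefore rest on labels in doubt. Adam19 had an interaction of −3.05 on the log2 scale (−2.05 in mTEC and 1.00 between the SIEC arrays), and it passed in 5 of 5 alternatives, between −3.09 and, with the SIEC labels exchanged, −1.05. Adam12 had −1.45 (−0.53 in mTEC and 0.92 in SIEC) and passed in 3 of 5, but was 0.39 with the labels exchanged. Adam33 had −0.89 (−0.33 in mTEC and 0.55 in SIEC) and passed in 0 of 5, with 0.22 under exchanged labels.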

How the results depend on the processing

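Adam19 passed between the mTEC genotypes in all 15 alternatives (−2.18 to −1.96), while Adam12 and Adam28 passed in 5 and Adam15 in 4. The 3119 genes called between mTEC genotypes became 1933 with normexp, 1776 with slide as a block, 1307 with no filter, 1837 within slide 1 and 1230 to 1837 with 1 array left out; with the replicate number as a block they were 3434, and that block changed no ADAM call. The 2 ADAM genes called higher became 0 with normexp, slide as a block, no filter, slide 1 or any 1 array left out, and 1 in the authors' table. The 2 called lower became 1 with normexp, slide as a block, no filter, the mean of probes or slide 1, and 1 to 2 with 1 array left out. Between tissues, the 5 ADAM genes lower in mTEC became 11 with no filter and 3 within slide 2. With normexp Adam3 (−0.29) and Adam17 (−0.44) changed sign, Adam12 was 0.55, and Adam22 (0.03) and Adam28 (0.05) did not pass. The median gene of that comparison was at −0.53 with normexp, −0.08 with quantile normalization and −0.85 in the authors' table; 42.2% of calls were higher in mTEC, 30.3% with normexp, 47.8% with quantile normalization and 34.4% in the authors' table. The 3619 interaction calls became 694 with normexp; ADAM genes higher were 3 with quantile normalization (0 as reported), and the 3 lower became 1 with normexp. With the SIEC labels exchanged, an alternative chosen after seeing the data, 2463 genes were called, 2 ADAM genes were higher and 1 lower, and Adam12 (0.39), Adam15 (0.78), Adam28 (1.68) and Adam33 (0.22) changed sign. The 1 ADAM gene at 2-fold between SIEC arrays became 0 with normexp, quantile normalization and the authors' table. With the looser flag for signal above background, 40 ADAM probes were counted on Cdx1+/+ mTEC 2 (26 otherwise), 27 on the array labelled Cdx1-/- SIEC 2 (14) and 24 on that labelled Cdx1+/+ SIEC 1 (15). The causes of these changes were not tested. Probes near background have only a bound, which limits most testis members.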
